A study of Carya illinoinensis with 18 samples.

Results

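The comparison described here sets pecan leaves at 12 d without water against leaves at 6 d, the middle course of a drought. Its members are the 24056 genes, of the 31074 in the table, with a mean FPKM (fragments mapped to a gene, scaled by its length and by the mapped fragments of the library) of at least 0.1 over the 6 libraries of these days. Of the 7018 genes left out, 4865 were listed at 0 in all 6 libraries. Both groups are leaves of grafted seedlings with the cultivar ‘Pawnee’ as scion on rootstocks raised from ‘Pawnee’ seed, kept in a growth chamber, and they differ in the days since watering ended. Each group holds 3 libraries, and each sample came from the leaves of at least 3 plants. The series also holds 3 libraries each at 0 d, which are untreated, and at 3 d, 9 d and 15 d. No seedlings watered until 12 d were analysed here, so days without water and days in the chamber cannot be told apart.

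When a leaf dries, the hormone abscisic acid accumulates, stomata close, and transcription shifts over a large part of the genome. In model plants such as *Arabidopsis*, genes for protective proteins and for the synthesis of osmolytes commonly rise under drought, while many genes for photosynthesis and growth fall.

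The table names genes by identifiers of which 31072 begin with CIL, and 0 of the 31074 were found in the RefSeq gene table of pecan. The leaf label could therefore not be checked against marker genes, pathways could not be described, and genes are reported by level, direction and spread, with 4 identifiers given as examples. In bulk leaf tissue, fewer cells of a type and less RNA per cell cannot be told apart. The FPKM of the 6 libraries summed to between 545668 and 559991. The table gives no counts, and the depth of the libraries is unknown.

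Before any gene is compared, the 12 d libraries need a description, because they were not alike. Correlations of log2(FPKM + 1) across the 24056 genes describe how alike 2 libraries were (genes are not independent replicates). At 12 d, r was 0.958 between replicates 1 and 3, 0.916 between replicates 1 and 2 and 0.858 between replicates 2 and 3. At 6 d, r was 0.978 between replicates 1 and 2, 0.908 between replicates 1 and 3 and 0.924 between replicates 2 and 3. Of the 6 d libraries, replicate 3 was closest to 9 d replicate 3 (r = 0.962), while replicates 1 and 2 were closest to each other. Each 12 d library had its closest match in another day. For 12 d replicate 1 this was 9 d replicate 1 (r = 0.983), for 12 d replicate 2 it was 9 d replicate 3 (r = 0.963), and for 12 d replicate 3 it was 15 d replicate 3 (r = 0.965). Replicate 2 correlated with the day mean of 15 d at 0.797 and with that of 6 d at 0.959. For replicate 3 the values were 0.967 with 15 d and 0.876 with 6 d.

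A measure that did not use these days placed the libraries along the course of drought. For the 9797 members whose mean log2(FPKM + 1) differed by at least 1 between 0 d and 15 d, each library was placed between these means, with 0% at the level of 0 d and 100% at that of 15 d. The median place was 20.1% in 6 d replicate 1, 31.5% in replicate 2 and 30.8% in replicate 3. At 12 d it was 67.1% in replicate 1, 24.3% in replicate 2 and 84.6% in replicate 3. Replicate 2 thus lay within the range of the 6 d libraries, whereas replicates 1 and 3 lay far beyond it. Among the 3 libraries of 12 d, replicate 2 was nearest to the level of 0 d in 8881 of the 9797 genes (90.7%), and replicate 3 was farthest along in 6998 (71.4%). The same division was found at 9 d, where replicate 1 had a median place of 74.3%, above 12 d replicate 1, and replicates 2 and 3 had 27.6% and 35.2%.

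**Figure D1:**
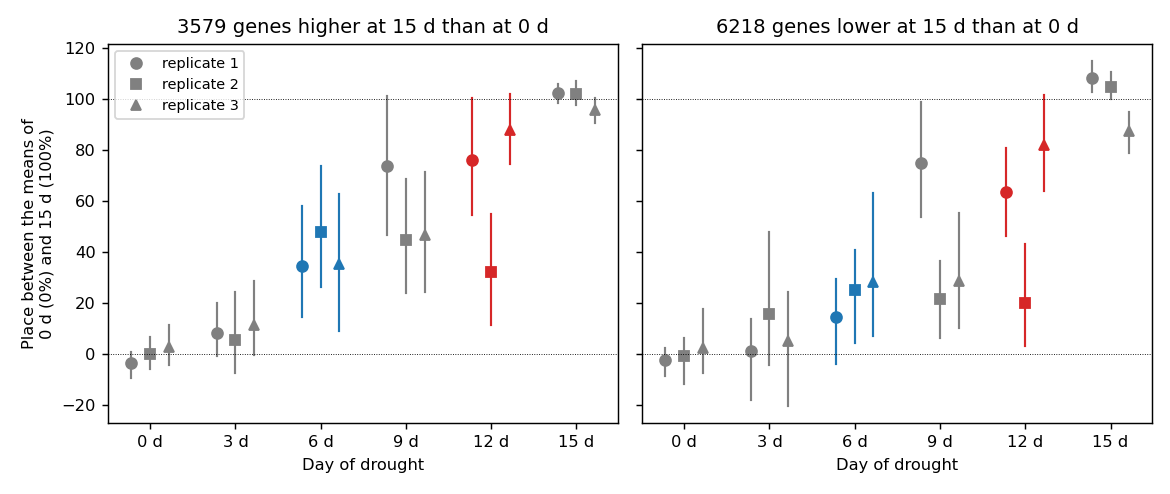
Place of each of the 18 libraries between the mean of 0 d (0%) and the mean of 15 d (100%) on log2(FPKM + 1), for 3579 genes higher (left) and 6218 genes lower (right) at 15 d by at least 1 on this scale. Symbols are medians over genes and lines span the quartiles, with 6 d in blue and 12 d in red. 12 d replicate 2 lies among the 6 d libraries in the right panel and just below them in the left panel, and the other 12 d libraries lie well above them toward 15 d.

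The order of the 12 d libraries was the same in both directions of change. Over the 3579 genes that were higher at 15 d than at 0 d, the median place was 76.1%, 32.3% and 87.9% in 12 d replicates 1, 2 and 3, against 34.5%, 47.9% and 35.2% in 6 d replicates 1, 2 and 3. Over the 6218 genes that were lower at 15 d, it was 63.4%, 19.9% and 81.9% in the 12 d replicates and 14.6%, 25.2% and 28.3% in the 6 d replicates. The 6 d libraries therefore stood nearer to 15 d among the rising genes than among the falling ones. On these measures 12 d replicate 2 stood with libraries of 6 d and 9 d, and 9 d replicate 1 stood with 12 d replicate 1. Whether libraries of 9 d and 12 d were exchanged was not tested. The places use FPKM as deposited and were not computed with another scaling. A scaling factor from the median ratio of each library to the mean of all 6 was 0.810 in 12 d replicate 3. In the other libraries of 6 d and 12 d this factor lay between 0.972 and 1.10. The labels were used as given, and every mean, spread and count of 12 d below rests on them. Results are given with and without 12 d replicate 2.

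The spread between the libraries of a day was larger at 12 d than at 6 d for most genes. The SD of log2(FPKM + 1) over 3 libraries had a median of 0.352 at 12 d and 0.243 at 6 d, and it was larger at 12 d in 63.9% of the genes. The untreated leaves had a median of 0.183, 3 d had 0.281, 9 d had 0.319 and 15 d had 0.172, so that 12 d had the highest of all 6 days. At 12 d the highest and the lowest library differed by more than 1 on the log2 scale in 7526 genes (31.3%), against 4471 (18.6%) at 6 d and 1230 (5.11%) at 15 d. Between 12 d replicates 2 and 3 alone, 6594 genes (27.4%) differed by more than 1, while 1997 (8.30%) did so between replicates 1 and 3. In 1907 genes the 12 d libraries spanned more than 2, about as many as at 3 d (1962) and 9 d (1961) and more than at 6 d (1244). Replicate 2 was farthest from the other two in 1336 of these (70.1%), lower in 679 and higher in 657. Replicate 3 was farthest in 514 and replicate 1 in 57.

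The excess of spread at 12 d was larger in the classes of higher mean FPKM. Genes were grouped by their mean FPKM over the 12 libraries of 0 d, 3 d, 9 d and 15 d, which do not enter the comparison. Since 9 d and 15 d are included, genes that rise late in drought can enter a higher class through that rise. The pseudocount of 1 also holds down the SD of genes under 1 FPKM. Whether the spread follows the level apart from this was not tested. In the 3735 genes under 1 FPKM, the SD was larger at 12 d in 46.6%, with medians of 0.232 at 12 d and 0.244 at 6 d. The share was 59.4% of the 9342 genes from 1 to under 10 FPKM and 72.8% of the 10183 genes from 10 to under 100 FPKM. In the 796 genes with 100 FPKM and over it was 84.2%, with medians of 0.668 at 12 d and 0.278 at 6 d.

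**Figure D2:**
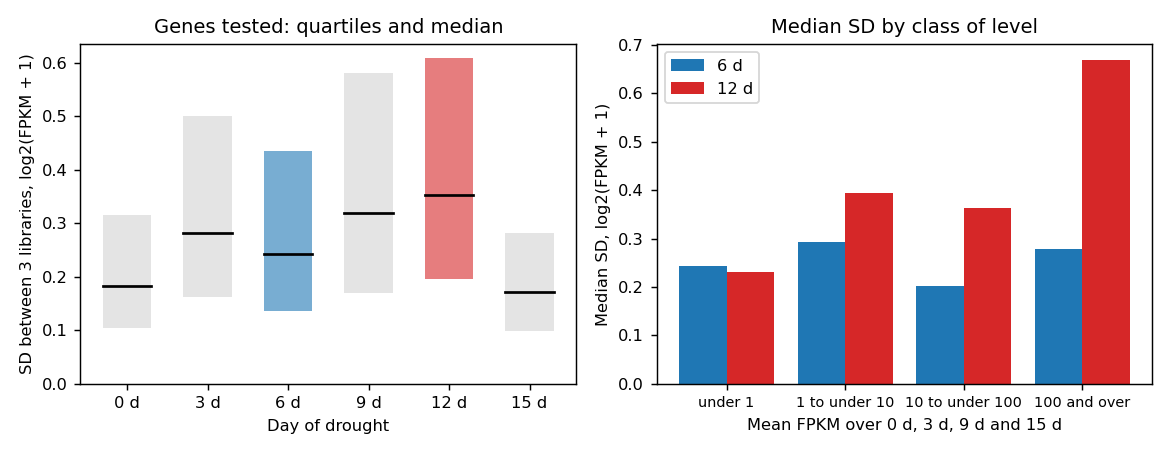
Left, SD of log2(FPKM + 1) between the 3 libraries of each day over 24056 genes, with boxes from the lower to the upper quartile and lines at the median. Right, median SD at 6 d and 12 d by mean FPKM over the other days. 12 d has the highest median of all days, 0.352, and its excess over 6 d is largest in genes of 100 FPKM and over.

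The most abundant transcript of severe drought shows this spread in a single gene. The gene with the highest mean FPKM at 15 d had 145, 241 and 104 FPKM in 6 d replicates 1, 2 and 3, and 2147, 57.0 and 15580 in 12 d replicates 1, 2 and 3. Its 12 d replicate 2 thus lay below all 6 d libraries, while replicate 3 held 2.78% of all FPKM of its library in this 1 gene. At 15 d it had 31425, 24218 and 25113 FPKM. Its log2 fold change from 6 d to 12 d was 3.01 with a standard error of 1.90 (adjusted p = 0.481 from limma), a difference within the spread between libraries.

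The gene with the highest FPKM in 12 d replicate 2 went the other way. It had 2205, 1736 and 3216 FPKM in the 6 d replicates and 739, 3715 and 876 in the 12 d replicates, so that replicate 2 lay above every 6 d library and replicates 1 and 3 below. At 0 d it had between 3470 and 4441 FPKM and at 15 d between 173 and 358. The gene with the largest SD at 12 d, among those with a mean of at least 1 FPKM, had 774, 745 and 812 FPKM at 6 d and 167, 12.6 and 5929 at 12 d. Here the 12 d libraries surrounded a tight 6 d group on both sides, and 15 d had 30.6, 30.1 and 23.2 FPKM. These 3 genes were singled out by their level or spread after the values had been seen.

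With this spread, no gene passed the test of 12 d against 6 d. The test was limma on log2(FPKM + 1) over the 6 libraries, two-sided, with Benjamini-Hochberg adjustment over the 24056 genes and a call at an adjusted p under 0.05. It called 0 genes as higher and 0 as lower at 12 d (0% of the genes tested in each direction), and the smallest adjusted p was 0.268. At an unadjusted p under 0.05 there were 2970 genes (12.3%), 937 higher (3.90%) and 2033 lower (8.45%). When the spread was estimated from all 18 libraries of the series, limma called 9 genes (0.0374%), 6 higher and 3 lower. These 9 had adjusted p values from 0.268 to 0.344 in the fit of 6 libraries, and the libraries of both days did not overlap in any of them.

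The call depended on single libraries. Without 12 d replicate 2, limma called 2441 genes (10.1%), 912 as higher (3.79%) and 1529 as lower (6.36%). Without 6 d replicate 3 it called 100 of the 24056 genes, all lower, and without 12 d replicate 3 it called 1 gene, which was higher. Leaving out any of the other 3 libraries gave 0 calls. Replicate 2 of 12 d is given in more detail because its values stood apart from the other 12 d libraries. The calls without it are therefore a description and add no evidence to the fit of all 6 libraries.

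The 2441 genes describe what replicates 1 and 3 of 12 d had in common against 6 d. The median log2 fold change was 1.89 in the 912 higher genes and -1.39 in the 1529 lower ones, and it was at least 1 in size in 805 and 1293 of them. In the higher genes the median difference from the 6 d mean was 1.79 in 12 d replicate 1, 1.93 in replicate 3 and 0.12 in replicate 2, the library left out. In the lower genes these medians were -1.31, -1.45 and -0.03. Replicate 2 lay inside the range of the 6 d libraries in 418 of the higher genes, above all of them in 342 and below all of them in 152. Among the lower genes it lay inside that range in 505, below it in 549 and above it in 475. The class of 10 to under 100 FPKM, with 10183 of the 24056 genes tested, held 539 of the higher and 985 of the lower genes. The class of 100 FPKM and over, with 796 genes tested, held 109 and 152.

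A view without a fitted spread is whether the libraries of both days overlap. In 1261 genes (5.24%) every 12 d library was above every 6 d library, and in 2940 genes (12.2%) every 12 d library was below, which makes 4201 genes (17.5%). An exact test of 3 against 3 libraries cannot give a two-sided p below 0.1, which is its p for every gene without overlap. These genes therefore passed no test and are given as a description. If the 6 libraries were exchangeable, a share of 0.1 of all genes would separate in this way, split evenly between the directions. With FPKM as deposited, the share of higher genes (5.24%) was near its part of this, and that of lower genes (12.2%) was above it. Of the 4201 genes, 56.1% also had an unadjusted p under 0.05 from limma. The excess of lower genes depended on the scaling. The higher genes were 30.0% of these genes with FPKM as deposited, but 51.4% with median-ratio scaling and 51.2% with quantile normalization. Median-ratio scaling left 2173 genes higher and 2057 lower without overlap, and quantile normalization left 2103 and 2006. With both scalings, each direction then lay above its part of the share for exchangeable libraries. Over all genes the median log2 fold change was -0.15 with FPKM as deposited, -0.02 with median-ratio scaling and -0.0027 with quantile normalization, and directions in the text are those of FPKM as deposited.

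The sizes of the differences were moderate for most genes. The median log2 fold change was 0.59 in the 1261 higher genes, with quartiles of 0.36 and 1.09, and -0.63 in the 2940 lower genes, with quartiles of -0.96 and -0.41. It was at least 1 in 350 higher genes and at most -1 in 676 lower genes, and it passed 2 in size in 104 and 87. Over all genes tested, 2738 had a log2 fold change of at least 1 in size, and in 1712 of these (62.5%) the libraries of both days overlapped. Their standard errors had a median of 0.58, against 0.28 over all genes.

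**Figure D3:**
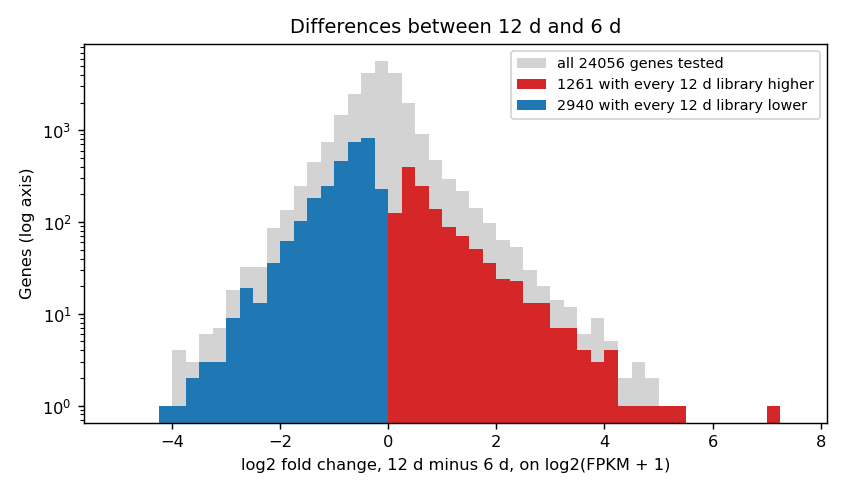
Histogram of the log2 fold change of 12 d against 6 d on log2(FPKM + 1) over the 24056 genes tested, with the number of genes on a log axis. Red marks the 1261 genes with every 12 d library above every 6 d library and blue the 2940 with every 12 d library below. Grey parts at both ends are genes with large mean differences whose libraries overlap.

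The split of directions differed between the classes of level. In the class of 100 FPKM and over, 68 genes were higher without overlap (8.54%) and 48 lower (6.03%). From 10 to under 100 FPKM these numbers were 650 (6.38%) and 1128 (11.1%). From 1 to under 10 FPKM, 382 genes were higher (4.09%) and 1377 lower (14.7%), and under 1 FPKM 161 were higher (4.31%) and 387 lower (10.4%). The median size of the log2 fold change was 0.59 in the most abundant class and between 0.23 and 0.39 in the others. These shares are of FPKM as deposited, and the scalings that moved the split of all genes were not applied by class. The class means include 9 d and 15 d, so genes that rise late in drought can enter a higher class through that rise. How much of the split comes from this was not tested. Exchangeable libraries would give a share of 0.1 in each class, split evenly between the directions.

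For examples, 4 genes are given by identifier. The rule fixed for the named genes required a call and so named 0 genes. The requirement was then dropped, after the values had been seen, and in each direction the gene without overlap and with a mean of at least 1 FPKM that had the largest log2 fold change was taken, together with the one with the largest difference of mean FPKM.

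Among the genes without overlap, CIL1132S0030 had the largest rise on the log2 scale. It had 3.60, 3.43 and 2.22 FPKM in 6 d replicates 1, 2 and 3 and 2253, 492 and 152 FPKM in 12 d replicates 1, 2 and 3. The groups were far apart, and among the 12 d libraries replicate 1 was the highest and replicate 3 the lowest, 14.8 times below it. The means were 3.08 ± 0.752 and 966 ± 1128 FPKM (SD, n = 3), a ratio of 313, and on the log2 scale 12 d was higher by 7.10 with a standard error of 0.90 (adjusted p = 0.274 from limma). At 9 d, CIL1132S0030 had 3296 FPKM in replicate 1 against 72.0 and 34.9 in replicates 2 and 3, and at 15 d between 390 and 612. It was not silent before 6 d, with 3.77, 5.63 and 41.5 FPKM at 0 d and 79.5, 19.1 and 61.4 at 3 d, so that 6 d was its lowest day.

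CIL0037S0002 had the largest rise in mean FPKM among the genes without overlap. It had 170, 171 and 181 FPKM in the 6 d replicates and 5051, 409 and 6061 FPKM in 12 d replicates 1, 2 and 3. The 6 d libraries were nearly equal, with a mean of 174 ± 6.27 FPKM (SD, n = 3), whereas 12 d replicate 2 was lower than replicate 3 by 14.8 times. Its mean at 12 d was 3841 ± 3014 FPKM (SD, n = 3), the third highest of all genes on that day, with a log2 fold change of 3.73 and a standard error of 1.07 (adjusted p = 0.379 from limma). CIL0037S0002 averaged 36.9 FPKM before drought and 62.1 FPKM at 3 d, and on the later days 2636 FPKM (9 d) and 2828 FPKM (15 d). At 9 d, replicate 1 had 6462 FPKM against 231 and 1214, and the 15 d libraries were again close together, with 2679, 2840 and 2965 FPKM.

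The largest fall on the log2 scale, again among genes without overlap, was that of CIL0942S0178. It had 43.2, 22.4 and 19.1 FPKM in the 6 d replicates and 0.11, 0.20 and 1.58 FPKM in 12 d replicates 1, 2 and 3. All 12 d libraries were low, replicate 2 included, and the highest of them was replicate 3. The means were 28.2 ± 13.0 and 0.630 ± 0.824 FPKM (SD, n = 3), which is 44.8 times lower at 12 d, with a log2 fold change of -4.19 and a standard error of 0.46 (adjusted p = 0.274 from limma). CIL0942S0178 was high at 3 d and 6 d and low on the first and last days. It had at most 0.53 FPKM at 0 d and 50.2, 15.2 and 20.5 FPKM at 3 d. The 9 d replicates were split, with 0.12, 17.4 and 10.2 FPKM, and the 15 d libraries had at most 0.32.

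CIL1048S0062 had the largest fall in mean FPKM among the genes without overlap and was the third most abundant gene at 6 d. It had 2460, 1742 and 2911 FPKM in the 6 d replicates and 603, 1685 and 870 FPKM in 12 d replicates 1, 2 and 3. The highest 12 d library, replicate 2, lay just under the lowest 6 d library. The means were 2371 ± 590 and 1053 ± 563 FPKM (SD, n = 3), with a log2 fold change of -1.27 and a standard error of 0.90 (adjusted p = 0.520 from limma). This standard error draws on genes of a like level and was larger than the SD of the gene's own libraries on the log2 scale, 0.378 at 6 d and 0.750 at 12 d. The 0 d libraries had 2661 to 3028 FPKM and the 15 d libraries 266 to 355.

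Without 12 d replicate 2, limma called CIL1132S0030 (log2 fold change 7.19, adjusted p = 0.0249), CIL0037S0002 (4.98, adjusted p = 0.0144) and CIL0942S0178 (-4.02, adjusted p = 0.0212). Their standard errors, in this order, were 1.08, 0.38 and 0.50 without this library and 0.90, 1.07 and 0.46 with it. Of these genes, only CIL0037S0002 had a smaller standard error without the library. The adjusted p also depends on the p values of all other genes, many of which fell. CIL1048S0062 was not called (-1.68, adjusted p = 0.160 from limma). These genes were chosen by their differences in the same libraries, and the library left out was singled out by its values. The adjusted p values without this library are therefore a description. Over the 15 alternatives of each gene, the adjusted p from limma ranged from 0.000382 to 0.798 for CIL1132S0030, CIL0037S0002 and CIL0942S0178, and from 0.00707 to 0.826 for CIL1048S0062. The low ends came from the fit with array weights, whose weights did not converge. Over the other 14 alternatives the lowest adjusted p from limma was 0.0249, 0.0144 and 0.0212 for the former genes in this order and 0.160 for CIL1048S0062. The log2 fold changes kept their sign in all of these alternatives.

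**Figure D4:**
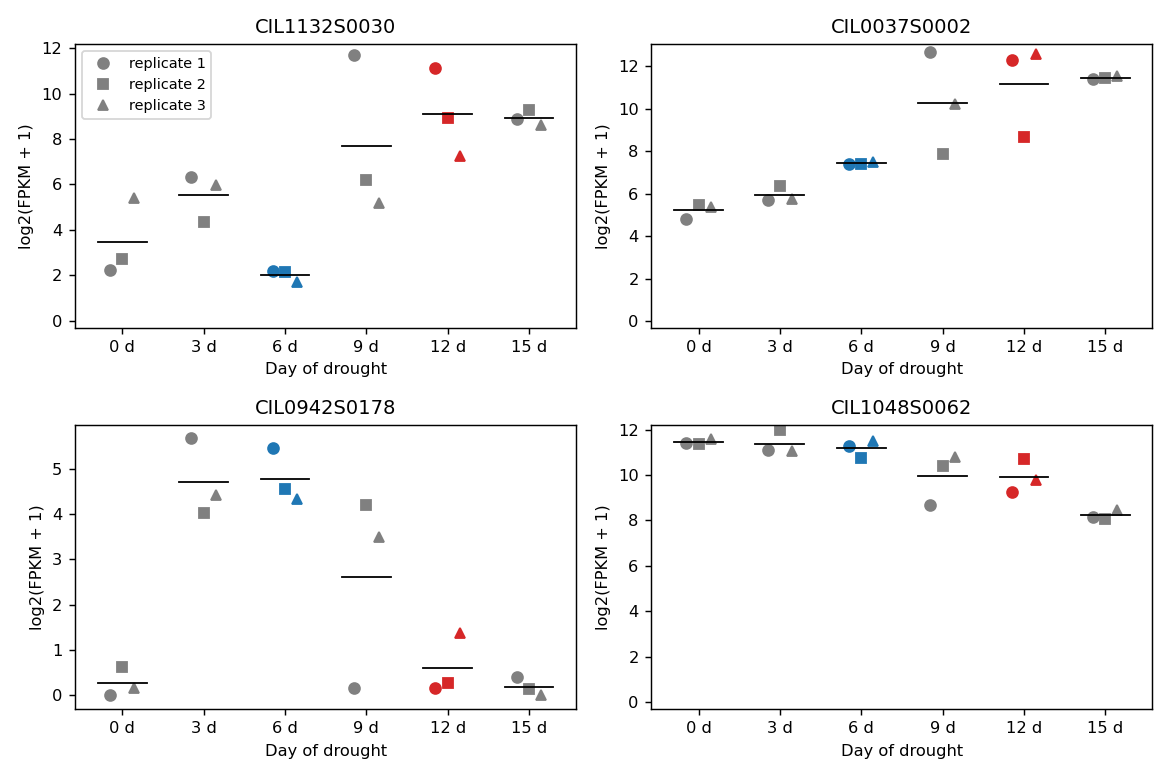
log2(FPKM + 1) of the 4 genes given by identifier in all 18 libraries, with 6 d in blue and 12 d in red, a symbol for each replicate number and a line at the mean of each day. At 6 d the 3 libraries of CIL0037S0002 lie together at 170 to 181 FPKM, while its 12 d libraries range from 409 to 6061 FPKM.

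The 20 genes with the largest log2 fold changes in each direction, among those without overlap and with a mean of at least 1 FPKM, were also widely spread at 12 d. In the 20 higher genes the log2 fold change ranged from 3.42 to 7.10, with adjusted p from 0.274 to 0.397 from limma. The highest 12 d library was replicate 1 in 11 of them and replicate 3 in 8, and the lowest was replicate 2 in 15. At the median, the highest 12 d library exceeded the lowest by 17.2 times, against 2.55 times at 6 d. In the 20 lower genes the log2 fold change ranged from 2.73 to 4.19 in size, with adjusted p from 0.268 to 0.385, and the ratios of the highest to the lowest library had medians of 9.55 at 12 d and 2.83 at 6 d. Replicate 2 was the highest 12 d library in 10 of them and replicate 3 in 9. The lowest was replicate 3 in 10, replicate 1 in 7 and replicate 2 in 3, so that replicate 3 was often at either end.

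The days that do not enter the comparison show where these genes stood before and after. Of the 1261 genes that were higher at 12 d without overlap, 1138 (90.2%) had a higher mean at 15 d than at 0 d, against 39.3% of all genes tested. Of the 2940 lower genes, 86.0% had a lower mean at 15 d than at 0 d, against 60.3% of all genes. The median difference of 15 d from 0 d on the log2 scale was 0.83 in the higher genes, -0.75 in the lower genes and -0.24 in all genes. Between 3 d and 9 d, 88.8% of the higher genes rose in mean level and 79.3% of the lower genes fell, against 47.7% and 52.0% of all genes. The 9 d means include replicate 1, which stood with 12 d replicate 1, and these shares from 3 d to 9 d were not computed without it. The libraries of 0 d, 3 d, 9 d and 15 d do not enter the comparison, though whether plants were sampled on more than 1 day is not stated. The shares are a description over genes, which are not replicates, and no test was made.

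In the profile over libraries, relative to the mean of the 12 other libraries of each gene, the higher genes had medians of -0.30, -0.18 and -0.17 in the 6 d replicates and 0.48, 0.17 and 0.39 in 12 d replicates 1, 2 and 3. The lower genes had 0.46, 0.40 and 0.34 in the 6 d replicates and -0.23, -0.04 and -0.35 in the 12 d replicates. Replicate 2 was thus the closest of the 12 d libraries to 6 d even in the genes where all 12 d libraries lay on one side. In 9 d replicate 1 the medians were 0.46 and -0.33, at the level of 12 d. In 9 d replicates 2 and 3 they were 0.009 and 0.001 in the higher genes and 0.21 and 0.22 in the lower genes. These values lay between the medians of the 6 d and the 12 d libraries.

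**Figure D5:**
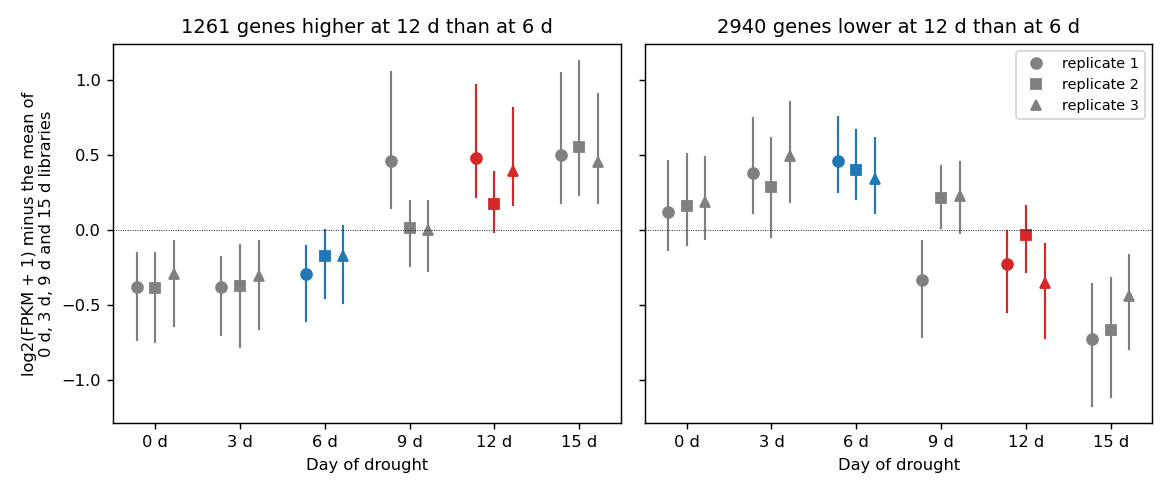
log2(FPKM + 1) of each library minus the mean over the libraries of 0 d, 3 d, 9 d and 15 d of the same gene, for the genes with every 12 d library above (left) or below (right) every 6 d library. Symbols are medians over genes and lines span the quartiles, with 6 d in blue and 12 d in red. The 6 d and 12 d values chose the genes, and among the other libraries 9 d replicate 1 has medians of 0.46 (left) and -0.33 (right). Replicates 2 and 3 of 9 d have medians of 0.009 and 0.001 (left) and 0.21 and 0.22 (right).

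Some genes were listed at 0 on one of the days. Of the 31074 genes in the whole table, 68 were at 0 in all 6 d libraries and above 0 in all 12 d libraries. The reverse, above 0 in all 6 d libraries and at 0 in all 12 d libraries, was found in 60. These genes were weakly expressed, with a median day mean of 0.270 FPKM for the 68 genes (12 d) and 0.238 FPKM for the 60 genes (6 d). A mean of at least 1 FPKM was reached in 8 of the 68 and in 5 of the 60, and the highest means were 3.41 and 9.68 FPKM. Every 12 d library reached 1 FPKM in 1 of the 68, and every 6 d library did so in 0 of the 60. Of the 68 genes, 44 were above 0 in all 15 d libraries, and of the 60 genes, 29 were at 0 in all of them. With no counts in the table, a value of 0 can be a low level rounded to 0 or a failed estimate, and no fold change is given.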

How the data were processed

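Leaf mRNA of 18 libraries was sequenced on an Illumina NovaSeq. The authors computed FPKM with RSEM, which divides reads that fit several genes, and deposited one table of FPKM rounded to 2 decimals. The submitters' processing notes list fastp 0.18.0, Bowtie2 2.2.8, HISAT2, StringTie 1.3.1 and RSEM without their roles. The genome build and annotation are not given in the sources used here. Columns were matched to libraries by title, and 0 columns were left aside. Fragment counts were not used here. An estimate of relative depth from the steps between low FPKM values was tried and dropped, since it failed for some of the library depths tried in simulated data, so whether depth differed between 6 d and 12 d is unknown.

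Genes with a mean of at least 0.1 FPKM over the 6 libraries were fitted as log2(FPKM + 1) with limma 3.58.1 in R 4.3.3, one mean per day and eBayes with a trend, two-sided, with Benjamini-Hochberg adjustment over the 24056 genes. Only the days compared entered the fit, since the spread differs between days. Fold changes on this scale understate those of low genes. The fit was tested on simulated data. The methods of the study name the libraries of a day as biological repetitions, each from at least 3 plants, without saying whether plants were shared. Alternatives were another pseudocount (0.1), other filters, median-ratio and quantile scaling, all 18 libraries, array weights, a robust fit, a replicate block, a limit on size and leaving out each library. Members and rules were chosen with earlier results of these data known. Descriptions used Python 3.11.15, pandas 2.3.3, numpy 2.4.6, matplotlib 3.10.9 and scipy 1.17.1.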

Additional observations from a re-analysis of the deposited data

How the results depend on the processing

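The count of 0 genes called by limma stayed at 0 with a pseudocount of 0.1, a minimum of 1 FPKM, no filter, median-ratio scaling, quantile normalization, a robust fit and a limit on size, with 2563 to 3068 genes at an unadjusted p under 0.05 and smallest adjusted p values from 0.195 to 0.305. It was 9 (6 higher, 3 lower) with all 18 libraries in the fit. Array weights gave 14536 calls among the 24056 genes tested, 4849 higher and 9687 lower. However, this fit put a weight of 37.4 on 12 d replicate 1 against 0.163 on replicate 2, and the estimate of the weights did not converge. Leaving out each library in turn gave 0 to 2441 calls, 0 to 912 higher and 0 to 1529 lower.

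With the replicate number as a block, limma called 0 genes. Deviations from the day mean had correlations over genes of -0.15, -0.21 and 0.11 between libraries of equal number (replicates 1, 2 and 3). Between libraries of unequal number the correlations ranged from -0.20 to 0.33. With 3 libraries per day, these values cannot show whether libraries of equal number share plants.

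Of the 24056 genes, those without overlap that were higher at 12 d numbered 1261 as deposited, 2173 with median-ratio scaling and 2103 with quantile normalization. Those that were lower numbered 2940, 2057 and 2006 in this order. Leaving out a library gave 5085 to 11760 of the 24056 genes without overlap, 1438 to 3833 higher and 3492 to 7927 lower, since fewer libraries separate more easily. The largest of these, 11760 and 9144, were without 12 d replicate 2 and without 6 d replicate 3. With a library left out, exchangeable libraries would also separate in a share of genes above 0.1. The counts with a library left out are therefore only a description. The share of genes with a larger SD at 12 d was 65.5% with a pseudocount of 0.1, 60.4% after quantile normalization and 68.3% with a minimum of 1 FPKM. Over all genes the median log2 fold change was -0.016 with median-ratio scaling and -0.0027 with quantile normalization, and -0.22 to -0.08 without single libraries. FPKM rounded to 2 decimals limits what can be read from the lowest genes.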

Other observations

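Identifiers that follow each other within one block of the CIL numbering gave 15908 pairs of tested genes. In 542 pairs both genes had no overlap between 12 d and 6 d, and 374 of these (69.0%) had the same direction, 67 both higher and 307 both lower. The shares of higher and lower genes alone would give 58.0%. Across all 15908 pairs the log2 fold changes of both genes had a Pearson r of 0.110 and a Spearman rho of 0.102, a weak relation given as a description. Whether such genes lie next to each other, or share reads that RSEM divided between them, was not tested.

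The number of genes with at least 1 FPKM was 19946, 19923 and 18625 in 6 d replicates 1, 2 and 3 and 18589, 19255 and 17937 in 12 d replicates 1, 2 and 3. The 10 most abundant genes of a library held 3.51% to 4.48% of its FPKM at 6 d, and 4.80%, 4.58% and 9.14% in the 12 d replicates.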
